A study of Mus musculus with 2 samples.

Results

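The genes described here are 8 members of the Ly6 family of surface antigens, Ly6a, Ly6c1, Ly6c2, Ly6d, Ly6e, Ly6g, Ly6i and Ly6k. They were chosen by gene symbol, as a family, with the counts and ratios of these same libraries already known, and all 8 were found among the 35602 gene symbols counted. Their differences between the libraries are therefore a description. The tissue was mouse breast tumour, sequenced as messenger RNA. One group was injected intraperitoneally with a PD-1 inhibitor, an agent that blocks an inhibitory receptor of activated T cells, and the other had the same injection and acupuncture. Both groups thus carried the PD-1 inhibitor, and no untreated tumour was analysed here. Each group was 1 library, called the PD-1 library and the acupuncture library below, and the labels give no strain, age, tumour model, acupuncture schedule or number of animals. The PD-1 library held 105728292 counts and the acupuncture library 60752043. Without replicates no test between treatments was possible, so each ratio describes these libraries, and every interval is a 95% interval for counting error only.

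Ly6 proteins are small, cysteine-rich proteins whose fold is held by disulfide bonds, and most are tethered to the cell surface by a glycosylphosphatidylinositol (GPI) lipid anchor. In the mouse several serve as markers of blood cells. Ly6C marks inflammatory monocytes and is also found on endothelium and some memory T cells, Ly6G marks neutrophils, and Ly6A, known as Sca-1, marks blood stem cells and is found on activated lymphocytes, endothelium and some tumour cells. Interferons raise the transcription of several members, Ly6a and Ly6e among them.

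Several members are recent duplicates, which matters for how reads are divided among them, and the coding sequences of 4 show how alike they are. The first 150 coding bases are given 5′ to 3′ from GENCODE M21 transcripts of the GRCm38 mouse assembly, with capitals at each base that differs from Ly6c1.
Ly6c1: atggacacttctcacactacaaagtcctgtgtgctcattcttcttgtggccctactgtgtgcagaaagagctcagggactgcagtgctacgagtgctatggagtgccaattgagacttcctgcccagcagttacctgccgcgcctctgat
Ly6c2: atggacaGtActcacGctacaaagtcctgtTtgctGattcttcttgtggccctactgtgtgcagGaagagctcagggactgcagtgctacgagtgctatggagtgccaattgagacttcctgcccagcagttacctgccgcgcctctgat
Ly6a: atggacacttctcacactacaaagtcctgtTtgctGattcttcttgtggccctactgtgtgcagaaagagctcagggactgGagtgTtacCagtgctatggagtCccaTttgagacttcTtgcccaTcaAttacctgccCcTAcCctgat
Ly6g: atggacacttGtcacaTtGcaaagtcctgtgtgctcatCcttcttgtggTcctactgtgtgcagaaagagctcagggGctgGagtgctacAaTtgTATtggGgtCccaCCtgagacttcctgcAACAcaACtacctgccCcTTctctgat
Over this stretch Ly6c2 differed from Ly6c1 at 6 bases, Ly6a at 14 and Ly6g at 25. Over their whole coding sequences of 393 bases, Ly6c1 and Ly6c2 were 97.7% identical, with 9 mismatches. Ly6a was 86.3% identical to Ly6i, 83.1% to Ly6g and 81.8% to Ly6c1, with gaps counted as differences. Ly6d, Ly6e and Ly6k stood further off, between 46.0% and 52.7% identical to any other member. Of the 100-base stretches in its annotated transcripts, Ly6c2 shared 14.9% with Ly6c1, and Ly6c1 shared 7.27% with Ly6c2. Ly6a, Ly6d, Ly6e, Ly6g and Ly6i shared 0 stretches of that length with another gene. At 50 bases Ly6a shared 9.76% of its stretches with Ly6c1 and 2.83% with Ly6i, whereas Ly6d and Ly6e still shared 0. No label gives the read length or says how reads matching several genes were counted, so the division of reads between Ly6c1 and Ly6c2 is uncertain. Ly6k shared 18.5% of its 100-base stretches with Gm17189, counting matches on either strand. Gm17189 is not among the gene symbols counted, so it has no count of its own here. No label gives the strand setting either, so in the shared stretches reads of Ly6k and of Gm17189 cannot be told apart.

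Together the 8 genes held 51090 counts in the PD-1 library and 67661 in the acupuncture library, or 0.0483% and 0.111% of all counts. Levels below are counts per 1000000 (CPM) after the library totals were adjusted by trimmed mean (TMM) factors. On that scale the 8 genes summed to 500.5 and 1075 CPM, 2.15-fold higher in the acupuncture library (2.12 to 2.17). Of the 8 members 4 were at least 2-fold higher with an interval above 1, namely Ly6a, Ly6c1, Ly6c2 and Ly6k, and 0 were at least 2-fold lower. Among all 18687 genes with a combined count of 20 or more, 9.21% were higher by this measure and 4.9% were lower. All 8 members passed that minimum, 7 had a ratio above 1, and their median log2 ratio was 1.13 against 0.0003 over all genes tested. In bulk tissue, more cells of a type and more RNA per cell cannot be told apart.

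**Figure D1:**
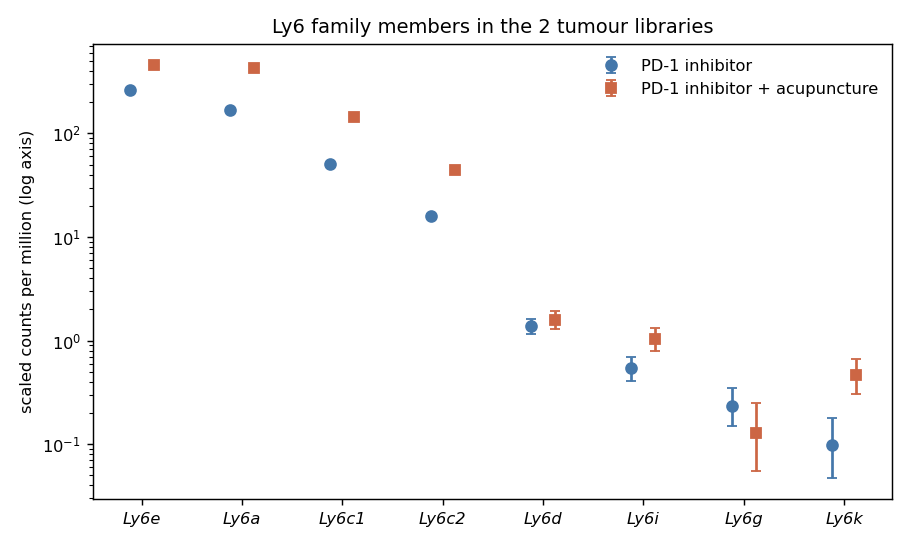
Level of each Ly6 member in scaled counts per 1000000 (vertical log axis) in the PD-1 library (circles) and the acupuncture library (squares), with exact Poisson 95% intervals as bars, hidden by the symbol where narrow. Ly6e and Ly6a lie above 100 CPM in both libraries, while Ly6g and Ly6k lie below 0.5 CPM in both.

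Ly6a, the Sca-1 antigen, had 17094 counts in the PD-1 library and 27020 in the acupuncture library, or 167 and 429 CPM. The acupuncture library was 2.56-fold higher (2.52 to 2.61). Ly6e, an interferon-induced gene expressed in many cell types, had 27008 and 28640 counts, or 265 and 455 CPM. It was 1.72-fold higher (1.69 to 1.75), short of the 2-fold limit, and its interval did not overlap that of Ly6a. Both members were the most abundant in either library, but their balance differed. Ly6e made up 52.9% of the reads of the 8 members in the PD-1 library (exact binomial interval 52.4 to 53.3) and 42.3% in the acupuncture library (42.0 to 42.7). Ly6a made up 33.5% (33.0 to 33.9) and 39.9% (39.6 to 40.3). Of the reads of this pair alone, Ly6a took 38.8% (38.3 to 39.2) and 48.5% (48.1 to 49.0). Merged over its annotated transcripts, Ly6e (8 transcripts) has 2460 bases of exon and Ly6a (5 transcripts) 1004. By level per merged length their order was the opposite of their order by counts. Which transcripts were expressed was not tested, so this order may depend on the length used. Ly6a stood at 167 and 428 CPM per kilobase and Ly6e at 108 and 185.

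The Ly6C copies came next. Ly6c1, the copy prominent in endothelium, had 5121 and 8982 counts, or 50.2 and 143 CPM, and was 2.85-fold higher in the acupuncture library (2.75 to 2.95). Ly6c2, the copy prominent in monocytes, had 1637 and 2817 counts, or 16.0 and 44.8 CPM, and was 2.79-fold higher (2.63 to 2.97). The intervals of the copies overlapped, so no difference between their ratios was detectable beyond counting error. Ly6c2 took 24.2% of the reads of the pair in the PD-1 library (23.2 to 25.3) and 23.9% in the acupuncture library (23.1 to 24.7). Summed, which sets aside the doubt over their division, the copies were at 66.2 and 188 CPM, 2.83-fold higher (2.75 to 2.92). Per kilobase of exon Ly6c1 stood at 32.4 and 92.3 CPM and Ly6c2 at 18.5 and 51.6, each below Ly6e and above Ly6d.

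Ly6i, the member closest to Ly6a in coding sequence and expressed by myeloid cells, was far less abundant. It had 55 and 65 counts, or 0.539 and 1.03 CPM, and was 1.92-fold higher in the acupuncture library (1.32 to 2.80). That interval holds the 2-fold limit, and Ly6i passed it when libraries were scaled by total counts. Its reads were 0.321% of those of Ly6i and Ly6a together in the PD-1 library (0.242 to 0.417) and 0.240% in the acupuncture library (0.185 to 0.306). These shares overlap, so no difference between the ratios of Ly6i and Ly6a was detectable. With Ly6a, Ly6c1, Ly6c2 and Ly6i summed, the ratio was 2.64-fold (2.60 to 2.68). An overlapping noncoding gene of Ly6a and Ly6i, Gm28068, had only 0 and 3 counts.

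The remaining members were rare in these tumours. Ly6d, found in stratified epithelium and on lymphoid progenitors turning to the B lineage, had 141 and 100 counts, or 1.38 and 1.59 CPM. Its ratio was 1.15 (0.882 to 1.5). Ly6g, the neutrophil antigen, had 24 and 8 counts, or 0.235 and 0.127 CPM, and it alone of the members had a ratio below 1, at 0.541 (0.210 to 1.24). The intervals of Ly6d and Ly6g include 1, so no difference was detectable at this depth. Ly6k, known chiefly from testis and sperm, had 10 and 29 counts, or 0.0980 and 0.461 CPM, and was 4.71-fold higher (2.23 to 10.8). Its ratio was the highest of the 8 and rested on the fewest counts in the PD-1 library. Ly6k no longer counts among the higher members when a combined count of 100 is required. The order of the members by level per merged exon length was Ly6a, Ly6e, Ly6c1, Ly6c2, Ly6d and Ly6i in both libraries. Ly6g and Ly6k came last and exchanged places, Ly6g at 0.250 and 0.135 CPM per kilobase and Ly6k at 0.118 and 0.556. In the PD-1 library the CPM intervals of Ly6g (0.151 to 0.350) and Ly6k (0.0470 to 0.180) overlapped, and in the acupuncture library those of Ly6g (0.0549 to 0.251) and Ly6k (0.309 to 0.662) did not.

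**Figure D2:**
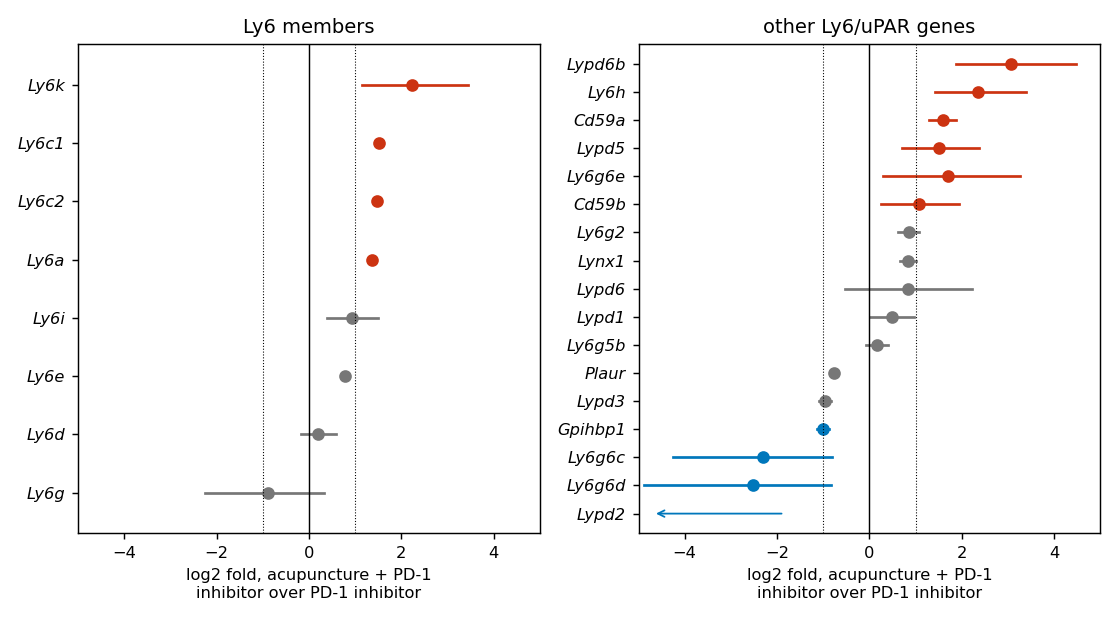
Log2 ratio of the acupuncture library over the PD-1 library (horizontal axis) with 95% counting intervals for the 8 Ly6 members (left) and 17 other genes of the superfamily (right), red for at least 2-fold higher, blue for at least 2-fold lower, grey for between, and dotted lines at 2-fold. For Lypd2, with 0 counts in the acupuncture library, an arrow starts at the upper limit of the interval. The members run from Ly6g, at a ratio of 0.541, to Ly6k, at 4.71, and the superfamily genes spread to both sides.

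The sequences upstream of Ly6c1, Ly6c2 and Ly6g are shown because these are the members with a RefSeq promoter entry here. They include the Ly6C copies, at ratios of 2.85 and 2.79, and Ly6g, at 0.541. The 250 bases before each listed start are given 5′ to 3′ on the gene's strand, from RefSeq on GRCm38.p6, an earlier assembly than the one named for the counts. Capitals mark matches to a TATA box, spelled TATAAA, and to a CCAAT box.
Ly6c1 (chr15:75048838-75049087, minus strand): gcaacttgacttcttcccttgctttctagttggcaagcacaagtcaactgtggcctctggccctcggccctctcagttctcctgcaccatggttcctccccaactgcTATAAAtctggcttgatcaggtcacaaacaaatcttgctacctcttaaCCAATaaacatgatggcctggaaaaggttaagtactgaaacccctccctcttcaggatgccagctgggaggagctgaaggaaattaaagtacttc
Ly6c2 (chr15:75111972-75112221, minus strand): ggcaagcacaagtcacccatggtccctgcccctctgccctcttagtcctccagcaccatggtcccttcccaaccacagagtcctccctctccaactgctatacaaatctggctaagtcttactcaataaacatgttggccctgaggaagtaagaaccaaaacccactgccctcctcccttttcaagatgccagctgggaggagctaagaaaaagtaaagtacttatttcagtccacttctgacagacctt
Ly6g (chr15:75155011-75155260, plus strand): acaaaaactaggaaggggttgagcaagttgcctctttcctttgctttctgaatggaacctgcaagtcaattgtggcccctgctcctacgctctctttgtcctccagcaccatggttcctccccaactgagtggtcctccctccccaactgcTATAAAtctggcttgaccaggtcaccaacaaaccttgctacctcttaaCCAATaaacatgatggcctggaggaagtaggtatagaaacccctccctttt
Each motif was sought on both strands. Ly6c1 matched TATAAA at position -143 from the listed start and CCAAT at -95. Ly6g matched them at -99 and -51, and the Ly6c2 window matched neither. Of 27025 mouse promoters of the same length, 13% held TATAAA and 34.5% CCAAT. These are matches of letters, and whether any acts as a promoter element was not tested. The gamma-activated site, spelled TTCNNNGAA, was in 7.18% of all promoters and in 0 of these 3 windows. The core of the interferon-stimulated response element, spelled GAAANNGAA, was in 7.16% of all promoters and likewise in 0 of the 3. The matches shown do not overlap each other. Over the windows, with gaps counted as differences, Ly6c1 was 57.7% identical to Ly6c2 and 58.5% to Ly6g, and Ly6c2 was 42.5% identical to Ly6g. The windows are offset from each other, as the motif positions of Ly6c1 and Ly6g show, so their unpaired ends lower these figures. Of the bases aligned to a base, 164 of 216 were identical between Ly6c1 and Ly6c2. The same held for 172 of 206 between Ly6c1 and Ly6g and 139 of 173 between Ly6c2 and Ly6g. RefSeq lists 2 starts for each of these genes, and each window belongs to the first one listed.

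All 8 members lie on chromosome 15, in a stretch bounded here by Psca and Gpihbp1. Ly6a, Ly6c1 and Ly6c2, at ratios of 2.56, 2.85 and 2.79, follow one another among the genes of the stretch that could be tested, and Ly6g, at 0.541, is the next. Past Ly6g lies Ly6g2, with 325 and 360 counts and a ratio of 1.80 (1.54 to 2.09). Among 28 neighbours listed in the counts that are no members 7 could be tested, of which 3 were higher, 2 lower and 2 between. Of the others 11 had 0 counts in both libraries and 10 had 1 to 19 counts combined. Between Ly6i and Ly6a the noncoding gene Gm41348, with 58 and 73 counts, was 2.04-fold higher (1.43 to 2.93). At one end Gpihbp1, which carries lipoprotein lipase across capillary endothelium, stood at 20.3 and 10.1 CPM, 2.0-fold lower (1.83 to 2.19). Near the other end Lypd2 had 23 and 0 counts, and the interval of its ratio reached up to 0.282. The members and their neighbours thus had no common ratio along the chromosome.

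**Figure D3:**
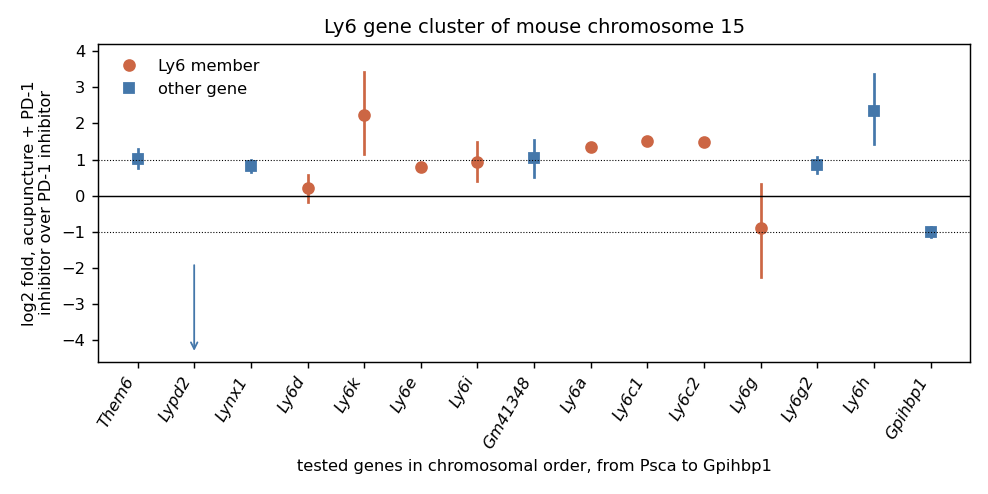
Log2 ratio of the acupuncture library over the PD-1 library (vertical axis) of the 15 tested genes of the chromosome 15 stretch in chromosomal order (horizontal axis), with 95% counting intervals as bars and dotted lines at 2-fold. Circles are Ly6 members and squares other genes, and the arrow at Lypd2 starts at the upper limit of its interval because the acupuncture library held 0 counts. Ly6a, Ly6c1 and Ly6c2 lie side by side above the upper dotted line, while Gpihbp1 lies at the lower one.

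The wider Ly6/uPAR superfamily shares the fold of the members. Of 34 further genes 17 could be tested, with 6 higher, 4 lower, 7 between and a median log2 ratio of 0.70, and 9, Psca among them, had 0 counts in both libraries. The summed level of these relatives was 186 and 124 CPM, lower in the acupuncture library, where the 8 members summed higher. Most of it was Plaur, the urokinase receptor, at 128 and 75.0 CPM, 1.70-fold lower (1.65 to 1.76). Cd59a, which protects cells from complement, had 157 and 290 counts and was 3.0-fold higher (2.46 to 3.66). Among 10 tested partners of such proteins 2 were higher and 2 lower, at a median of -0.32. The integrin Itgb1 stood at 0.801 times its level in the PD-1 library (0.792 to 0.809), and Vtn, which encodes vitronectin, was 8.05-fold higher (6.61 to 9.86). Of the genes listed as acting on the GPI anchor 31 were measured, with 1 higher, 0 lower and 30 between, at a median of -0.11. The transamidase subunit Pigt was 1.67-fold lower (1.62 to 1.72), Dpm3 was 1.77-fold lower (1.61 to 1.94), and Pgap4 was 2.62-fold higher (1.81 to 3.82).

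The neutrophil, endothelial and epithelial marker lists each had a median log2 ratio below 0, and the monocyte median was near 0, at -0.03, and turned to 0.07 with libraries scaled by total counts. Beside Ly6g, at 24 and 8 counts, 14 of 20 neutrophil markers were lower, 0 were higher and 0 were at 0 counts, with a summed level of 855 and 386 CPM and a median log2 ratio of -1.45. Csf3r, the G-CSF receptor, was 2.86-fold lower (2.64 to 3.10) and the alarmin S100a9 35.2-fold lower (30.6 to 40.7). The wide interval of Ly6g overlapped that of Csf3r and lay above that of S100a9. Beside Ly6c2, at 2.79-fold higher, 1 of 16 monocyte markers was higher and 1 lower, with 0 markers at 0 and 7527 and 5206 CPM in sum. Ccr2, the receptor by which monocytes leave the marrow, was 1.25-fold higher (1.21 to 1.29), an interval below that of Ly6c2. Fn1, the most abundant of the list and also made by stroma, was 1.63-fold lower (1.62 to 1.63). Beside Ly6c1 and Ly6a, 0 of 17 endothelial markers were higher and 1 lower, at a median of -0.44, with 0 markers at 0 and 668 and 570 CPM in sum. Pecam1 was 1.34-fold lower (1.29 to 1.39) and Cldn5 3.12-fold lower (2.72 to 3.58), and the highest, Tek, was at 1.47-fold (1.32 to 1.63), below the intervals of Ly6a and Ly6c1. Beside Ly6d, 3 of 16 tested basal and squamous epithelial markers were higher and 4 lower, at a median of -0.68 and 364 and 244 CPM in sum. Krt14, the most abundant, was 1.51-fold lower (1.47 to 1.55) and Krt5 was 6.41-fold lower (3.35 to 13.8). Dsc3, with 0 and 112 counts, and Ivl, with 2 and 44, were higher, and Krt6a, Krt6b, Krt1 and Sprr1b had 0 counts in both libraries. General epithelial markers, which check the labelled tissue, were present in both, with Krt8 at 1564 and 1060 CPM, and 0 of 20 were higher and 3 lower at a median of -0.38, with 4808 and 3318 CPM in sum. Elf5, among those called lower, had 53 counts in the PD-1 library and 0 in the acupuncture library.

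Interferon response genes were higher in the same library as Ly6a, Ly6c1 and Ly6c2, and a part of interferon in the Ly6 values was not tested. Of the interferon gamma list 21 of 26 were higher and 0 lower, at a median log2 ratio of 1.73 and 1867 and 5098 CPM in sum. Ifng itself, with 15 and 167 counts, was 18.1-fold higher (10.6 to 33.0), the GTPase Gbp2 was 3.08-fold higher (3.02 to 3.14), and the immunoproteasome subunit Psmb8 was 1.40-fold higher (1.37 to 1.42). Of the type I interferon list 7 of 25 were higher and 0 lower, at a median of 0.84 and 1639 and 2910 CPM in sum. Oasl1, the lowest of that list, was 1.14-fold higher (1.08 to 1.20). On the log2 scale Ly6a, Ly6c1 and Ly6c2, at 1.36, 1.51 and 1.48, lay between the medians of these lists, and Ly6e, at 0.78, lay just below that of type I.

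**Figure D4:**
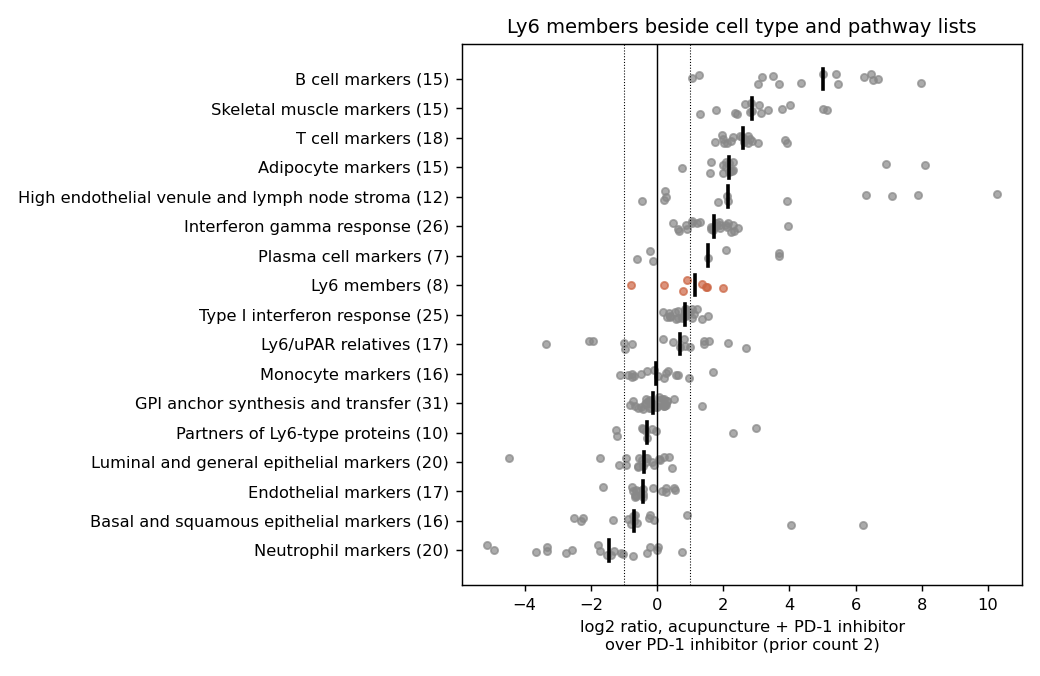
Log2 ratio, with a prior count of 2, of the acupuncture library over the PD-1 library (horizontal axis) for each tested gene, as a point, in the Ly6 members and 16 other gene lists (number tested in brackets), ordered by the median, drawn as a black bar, with dotted lines at 2-fold. The Ly6 members, at a median of 1.13, lie between the type I interferon list at 0.84 and the plasma cell list at 1.54, and the neutrophil list lies lowest at -1.45.

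Many markers of lymphocytes and of neighbouring tissues were also higher in the acupuncture library, and their part in the Ly6 values was not tested. All 18 T cell markers were higher, at a median log2 ratio of 2.59 and 48.8 and 256 CPM in sum, and all 15 B cell markers were higher, at 5.0 and 26.3 and 213 CPM, with Fcmr at 0 and 386 counts. Of 7 tested plasma cell markers 4 were higher and 0 lower, at 1.54 and 547 and 486 CPM. Most of that sum was Sdc1, which epithelium shares, at 339 and 221 CPM, 1.54-fold lower (1.51 to 1.57). Of 12 genes of high endothelial venules and lymph node stroma 8 were higher and 0 lower, at 2.13 and 422 and 525 CPM. Among them Glycam1, a mucin-like protein of those venules, had 4 and 4923 counts, and Chst4 had 0 and 120. Mfge8, the most abundant, held 340 and 246 CPM of that sum and was 1.38-fold lower (1.35 to 1.41). Adipocyte markers were higher in 14 of 15 and lower in 0, at 2.17 and 599 and 2357 CPM, and skeletal muscle markers were higher in all 15, at 2.86 and 285 and 2492 CPM. The median of the Ly6 members was 1.13, below the median of each of these lists except that of the plasma cell list when genes with any count were tested, which was then 0.95.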

How the data were processed

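Whole-number counts per gene symbol, 1 column per library, were deposited by the authors without normalization. GRCm39 and mm39 appear as builds in the submitters' processing notes, and the sources used here name no aligner, counter or strand setting. RNA was extracted with an RNeasy kit and libraries were made with a SMARTer kit, per the labels' protocols. The members and all gene lists were chosen with earlier results of these data known. TMM factors (edgeR 4.0.16 in R 4.3.3), from genes with 20 or more counts in both libraries together, were 0.966 and 1.04. A gene was called when the ratio reached 2-fold and its 95% interval (Clopper-Pearson, exact, on the share of its reads in either library) excluded 1. Log2 ratios carry a prior count of 2, scaled to library size. No label names molecular identifiers, and reads without them are not separate molecules, so all bounds reflect counting alone. With single libraries no p-value was computed.

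Named genes were taken from all members, the most abundant gene of each of 16 lists, the highest and lowest ratio among those with 100 or more counts, and Csf3r, Ccr2, Pecam1, Plaur, Cd59a, Gpihbp1 and Psca. Other genes of the chromosome 15 stretch, Ivl, and markers with 0 counts, were named after their values were seen. A few genes meeting this rule are not reported here. Of 311 list entries 3 had no symbol in the table, and Lpl is in 2 lists. Exon lengths, merged over the transcripts of a gene, and coding sequences came from GENCODE M21. Promoters came from RefSeq, which had entries for 3 members. Both sources were on GRCm38. Alignments used Biopython 1.88. The ratio calculation was tested on simulated data with known answers. Alternatives were other scalings (including DESeq2 1.42.0 size factors), prior counts, count minimums and fold limits, thinning of the deeper library, and summed copies.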

Additional observations from a re-analysis of the deposited data

How the results depend on the processing

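Under each of the 12 alternatives 0 members were at least 2-fold lower, and no member's log2 ratio changed sign. For several alternatives this was fixed in advance. The prior counts do not enter the calls and cannot turn the sign of a ratio. The count minimums and fold limits leave each ratio as it was, and raising them could not add a lower member. Lowering the minimum could not either, because every member already passed it. The median log2 ratio of the members ranged from 1.11 to 1.51. It was 1.51 when the epithelial markers were centred on 0, a scaling that moved the median of all tested genes to 0.38. The count of higher members fell from 4 to 1, Ly6k, under a 4-fold limit, which 3.63% of all tested genes passed as higher. It was 3 with a minimum combined count of 100, where Ly6g and Ly6k were not tested and 6.92% of all tested genes were higher. It was 5, with Ly6i, under scaling by total counts, which moved the median of all tested genes to 0.10, and under totals without the 10 most abundant genes. Under either of these scalings 10.4% of all tested genes were higher. The count of higher members was 6, with Ly6e and Ly6i, under the epithelial scaling, where 15% of all tested genes were higher. Of 98 alternative values of single members 85 stayed within the counting interval and 13 moved beyond it. The 85 include values under other count minimums and fold limits, which could not move. Scaling by total counts, by totals without the 10 most abundant genes, or by the epithelial markers moved Ly6a, Ly6c1, Ly6c2 and Ly6e beyond their intervals. DESeq2 and upper quartile scaling kept these members within them. For these members the choice of scaling can thus exceed the printed intervals. Depth limits Ly6g, Ly6k and Ly6i most, with 32, 39 and 120 counts over both libraries. No paired analysis was possible because each group held 1 library, and for the same reason no library could be left out.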
